A study of Arabidopsis thaliana with 8 samples.

Results

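The transcripts of bri1-116 seedlings were compared between light and dark, with 1 library on each side. bri1-116 is a null allele of BRI1, the gene of the brassinosteroid (BR) receptor, in the Col-0 background. Both libraries were chosen by their titles and are 2 of the 8 libraries of the series. Of 26987 gene entries, 22380 were above 0 FPKM (read fragments scaled by transcript length and sequencing depth) in both libraries and so had a light/dark ratio. The other libraries used were a light and a dark library each of Col-0 (wild type) and of DAYi. DAYi is a transgenic Col-0 line that carries an RNAi construct against DAY (AT3G51140) under dexamethasone (DEX) control, and here it received only ethanol (EtOH), the mock treatment that Col-0 and bri1-116 also received, with 0 µM DEX. All were whole seedlings, harvested at an age of 9 days in the light or 5 days in the dark. Light and age therefore cannot be told apart in any of the 3 light-dark pairs. There are no replicates, so no difference was tested and no error is given, and each ratio compares 2 libraries rather than 2 conditions.

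BRs are steroid hormones that bind the extracellular part of BRI1 at the plasma membrane. The signal inactivates the kinase BIN2, so that the factors BZR1 and BES1 enter the nucleus and act on genes of cell elongation and on genes of BR synthesis itself. In seedlings grown in the dark, BRs, gibberellin, auxin and the phytochrome-interacting factors (PIFs) together maintain etiolated growth, with a long hypocotyl, a closed hook and undeveloped plastids. Light ends this programme through photoreceptors and the factor HY5, and the genes of photosynthesis are then expressed. BR mutants are known for a de-etiolated form in the dark.

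The labels of both dark libraries of this comparison were in conflict. The library titled bri1-116 had wild type in its genotype entry, and the library titled Col-0 had bri1-116 there. The light library's title began with "new-", a prefix that no source explains. BRI1 transcript could not settle this, because it was present in all: 33.3 FPKM in light and 42.5 FPKM in dark bri1-116, 58.1 and 70.6 FPKM in Col-0, and 54.1 and 68.0 FPKM in DAYi with EtOH. EXPA8, an expansin gene known to be induced by BR, was at 3.20 FPKM in light bri1-116 against 93.5 FPKM in light Col-0. In the dark it was at 2.43 FPKM in the library titled bri1-116 and at 63.1 FPKM in the library titled Col-0. BR6OX2, a gene of the last steps of BR synthesis that BR represses, was at 122 FPKM in light bri1-116 against 21.5 FPKM in light Col-0, and in the dark at 129 FPKM in the library titled bri1-116 against 42.2 FPKM in that titled Col-0. Across 20187 genes the FPKM of the dark library titled Col-0 had a Spearman's rho of 0.989 with dark DAYi with EtOH, and the dark library titled bri1-116 had 0.923. EXPA8 and BR6OX2 were chosen after their values were seen. ROT3, a BR synthesis gene that the paper counts as BR-repressed, ran against the titles in the dark. It was at 27.4 FPKM in the library titled bri1-116 and at 38.0 FPKM in that titled Col-0. Over 12 genes of BR synthesis and inactivation, the dark library titled bri1-116 had a median of 0.17 (log2) over that titled Col-0. EXPA8, BR6OX2 and the rho values run the way the titles do. The titles are followed from here on, with the exchanged reading given after the counts over all genes.

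Dark and light values came from separate tables, and whether the authors scaled them together is not known, so a level set across them carries that doubt. DAYi values were likewise deposited apart from those of bri1-116 and Col-0, so levels of DAYi beside those lines carry the same doubt. The median log2 light/dark ratio of the 18031 genes at 1 FPKM or more in both bri1-116 libraries was 0.01, against 0.00 in Col-0 and -0.08 in DAYi with EtOH. AT2G01021 alone took 13.5% of the summed FPKM of dark bri1-116 and 2.0% of that of light bri1-116. Scaling both libraries to the same sum without it lowered the median log2 ratio of bri1-116 to -0.13. In dark and light bri1-116, 18725 and 18892 entries reached 1 FPKM. Steps between the lowest values gave a rough depth of 106.5 fragments in light and 121.6 in dark bri1-116 for each FPKM on a 1-kb transcript, so levels under 0.1 FPKM rest on few fragments. The same depth was 49.1 in light and 64.0 in dark Col-0, and 56.8 in light and 114.9 in dark DAYi with EtOH. Low levels thus rest on fewer fragments in Col-0 than in bri1-116, and the part of depth in the counts below was not tested. The scale between dark and light values is not known. A second measure was therefore used that does not depend on this scale, the double ratio. It is the log2 light/dark difference of bri1-116 less that of Col-0, on FPKM + 1, and it equals bri1-116 over Col-0 in the light table less the same in the dark table.

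In bri1-116, 3424 genes were over 2-fold higher in the light than in the dark (15.3% of 22380) and 2842 were over 2-fold lower (12.7%). The same counts were 4988 (22.9%) and 4167 (19.1%) of 21804 genes in Col-0, and 4683 (21.2%) and 4364 (19.8%) of 22068 genes in DAYi with EtOH. By the titles, the light-dark difference was thus smaller in bri1-116 than in either line with an intact receptor gene. Its median absolute size, over genes at 1 FPKM or more in either library, was 0.45 on the log2 scale in bri1-116, 0.69 in Col-0 and 0.67 in DAYi with EtOH. In all these counts genes listed at 0 in one library were left out, 757 in dark and 505 in light bri1-116. The shares over all genes given here are those to set beside the counts of the gene lists below.

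Of the 9155 genes past 2-fold in Col-0, 3909 (42.7%) were past 2-fold in the same direction in bri1-116. Another 4877 (53.3%) were within 2-fold there and 234 (2.56%) were past 2-fold in the opposite direction. In DAYi with EtOH, 7284 (79.6%) of the same genes were past 2-fold in the same direction. Genes chosen in Col-0 are measured afresh in both other pairs, and DAYi with EtOH shows how much was kept between a pair of lines that both have the receptor gene. The same held with the genes chosen in DAYi with EtOH. Of its 4683 genes higher in the light, 2069 (44.2%) were so in bri1-116 and 3934 (84.0%) in Col-0. Of its 4364 genes lower in the light, 1896 (43.4%) were so in bri1-116 and 3350 (76.8%) in Col-0. All 3 pairs had 1835 genes over 2-fold higher and 1646 over 2-fold lower in common. As a description over 20187 genes, which are not replicates, the ratios of bri1-116 and Col-0 had a Spearman's rho of 0.66, and those of Col-0 and DAYi with EtOH one of 0.94.

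**Figure D1:**
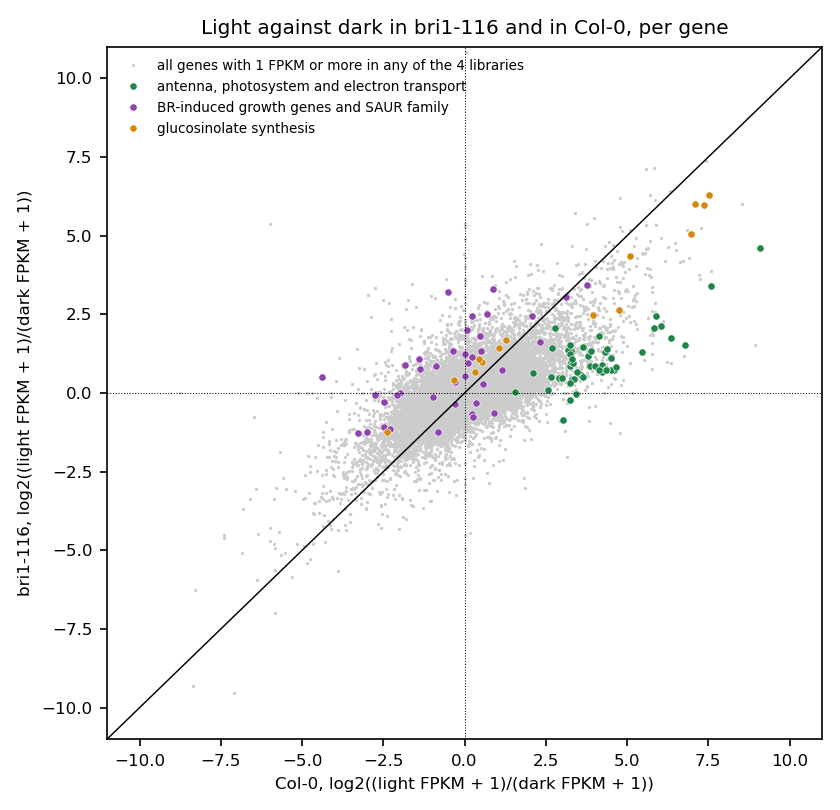
Log2((light FPKM + 1)/(dark FPKM + 1)) of each gene in bri1-116 (vertical axis) against Col-0 (horizontal axis), with the line of equal difference. Antenna, photosystem and electron transport genes (green) lie to the right and below the line, BR-induced growth and SAUR genes (purple) lie mostly above it, and glucosinolate synthesis genes (orange) lie nearer to it.

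With both dark libraries exchanged, 4407 genes were higher and 3999 lower in bri1-116, and 4161 (56.4%) of the 7384 differences in Col-0 were kept. More genes were then past 2-fold in bri1-116 than in Col-0, so the smaller light-dark difference of bri1-116 against Col-0 rests on the titles. The share kept in bri1-116 was still below the 67.6% of those that were past 2-fold in DAYi with EtOH. The gene groups below also depend on this choice. When the libraries were exchanged, the median log2 difference of the SAUR list went from 1.19 to -1.75 and that of the BR-induced growth genes from 0.53 to -1.29, and the heat shock list went from 0.21 to -0.17. The members higher and lower in the light became 2 and 13 in the SAUR list, 2 and 11 among the growth genes, 0 and 12 among Aux/IAA and GH3 genes, 0 and 7 in the gibberellin list, 0 and 2 among cellulose synthases, 0 and 5 in the BR signalling chain and 0 and 4 among heat shock genes. Photosynthesis lists moved toward Col-0, with 20 of 21 antenna genes, 28 of 29 photosystem and electron transport genes and 17 of 23 chlorophyll synthesis genes higher in the light. The members lower in the light became 8 of 8 Casparian strip markers, 10 of 14 starvation genes, 8 of 12 ethylene genes, 6 of 16 seed oil genes and 5 of 21 light signalling genes. Those higher became 5 of 14 in glucosinolate synthesis, 5 of 10 in defence and 0 of 3 among cell division markers. Of 109 genes named in the text, 15 went from higher to lower in the light, with IAA19, IAA6, IAA3, EXPA8, PRE1, XTH4, XTH19, SAUR50, GA2OX2, ACS5, NRT1.1, COR47, HSP90.1, AT4G11190 and BSU1, and 7 went from lower to higher, with LHCB1.3, PSAG, HEMA1, NPQ1, BR6OX2, KIN2 and PDF1.5. All values that follow are by the titles.

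A light-dark difference can be smaller because the dark level, the light level or both lie nearer to the other. By the medians below, both were displaced among genes chosen by their ratio in bri1-116. Of the genes higher in the light in DAYi with EtOH, the 2405 that were within 2-fold in bri1-116 stood at a median of 0.70 (log2) above Col-0 in dark bri1-116 and at -0.34 in light bri1-116. The 2069 that kept their difference had 0.10 and -0.18. Of the genes lower in the light, the 2238 that were within 2-fold in bri1-116 had -0.49 in the dark and 0.18 in the light, against -0.17 and 0.06 for the 1896 that kept it. Dark bri1-116 stood nearer to the light level than dark Col-0 did in both directions, by more than light bri1-116 stood nearer to the dark level. That the genes within 2-fold in bri1-116 are displaced follows in part from how they were chosen. They were chosen by the ratio of the same bri1-116 libraries, so the division between dark and light is not free of that choice.

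The genes of the photosynthetic apparatus were the groups that differed most between bri1-116 and the other lines. Their products form the light-harvesting antenna, both photosystems and the electron transport chain between them, and the carbon-fixing Calvin cycle. All 21 antenna genes were over 2-fold higher in the light in Col-0 and in DAYi with EtOH, and 11 were in bri1-116. Their median log2 difference was 1.29 in bri1-116, 3.45 in Col-0 and 4.53 in DAYi with EtOH, beside a median of 0.00 over all entries in each line. LHCB2.3, a major antenna protein gene of photosystem II (AT3G27690, chromosome 3 from 10255947 to 10257011), was at 284 FPKM in light and 96.8 FPKM in dark bri1-116. In Col-0 it was at 2107 and 18.1 FPKM and in DAYi with EtOH at 2076 and 27.4 FPKM. Both bri1-116 libraries thus lay between the light and dark levels of the other lines, and the double ratio was -5.24. LHCA1 of photosystem I was at 1226 FPKM in light and 281 FPKM in dark bri1-116, against 5270 and 79.0 FPKM in Col-0. LHCB1.3, which was at 7856 FPKM in the light, was at 14221 FPKM in the dark in bri1-116, where Col-0 had 20498 and 2534 FPKM. The LHCB1 genes are near-identical copies and their reads may have been split unevenly, so LHCB1.1, at 3793 FPKM in light and 156 FPKM in dark bri1-116, is uncertain in the same way.

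All 29 genes of the photosystems and electron transport were over 2-fold higher in the light in Col-0 and in DAYi with EtOH, and 11 of 29 were in bri1-116, with medians of 0.87, 3.79 and 3.93 in bri1-116, Col-0 and DAYi with EtOH. PSBO2, of the oxygen-evolving complex, had the largest difference of the list in bri1-116, at 920 FPKM in the light and 217 FPKM in the dark, while Col-0 had 2124 and 36.1 FPKM. PSAG, a photosystem I subunit, was at 1203 FPKM in the light and 1239 FPKM in the dark in bri1-116, and at 3483 and 323 FPKM in Col-0. The Calvin cycle and photorespiration list kept more members past 2-fold, 21 of 24, with a median of 1.53 against 3.75 in Col-0. RBCS1B, a small subunit of Rubisco, was at 2217 FPKM in light and 180 FPKM in dark bri1-116 and at 2467 and 15.2 FPKM in Col-0, so that the light levels were close and the dark levels were not. Its reads too may be shared with near-identical copies. RCA, Rubisco activase, was at 4196 and 552 FPKM in bri1-116 and at 7763 and 198 FPKM in Col-0. AT4G26530, a gene of fructose-bisphosphate aldolase, had the lowest double ratio of all genes at 10 FPKM or more, -7.42. It was at 5.77 FPKM in light bri1-116, at 520 FPKM in light Col-0 and at 480 FPKM in light DAYi with EtOH, and in the dark at 1.35, 0.057 and 0.19 FPKM in bri1-116, Col-0 and DAYi with EtOH. Over the 20050 genes at 1 FPKM or more in any of the 4 libraries, 2453 (12.2%) had a double ratio below -1 and 1801 (8.98%) above 1. All 29 photosystem and electron transport genes, 20 of 21 antenna genes and 21 of 24 Calvin cycle genes were below -1, and none was above 1.

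**Figure D2:**
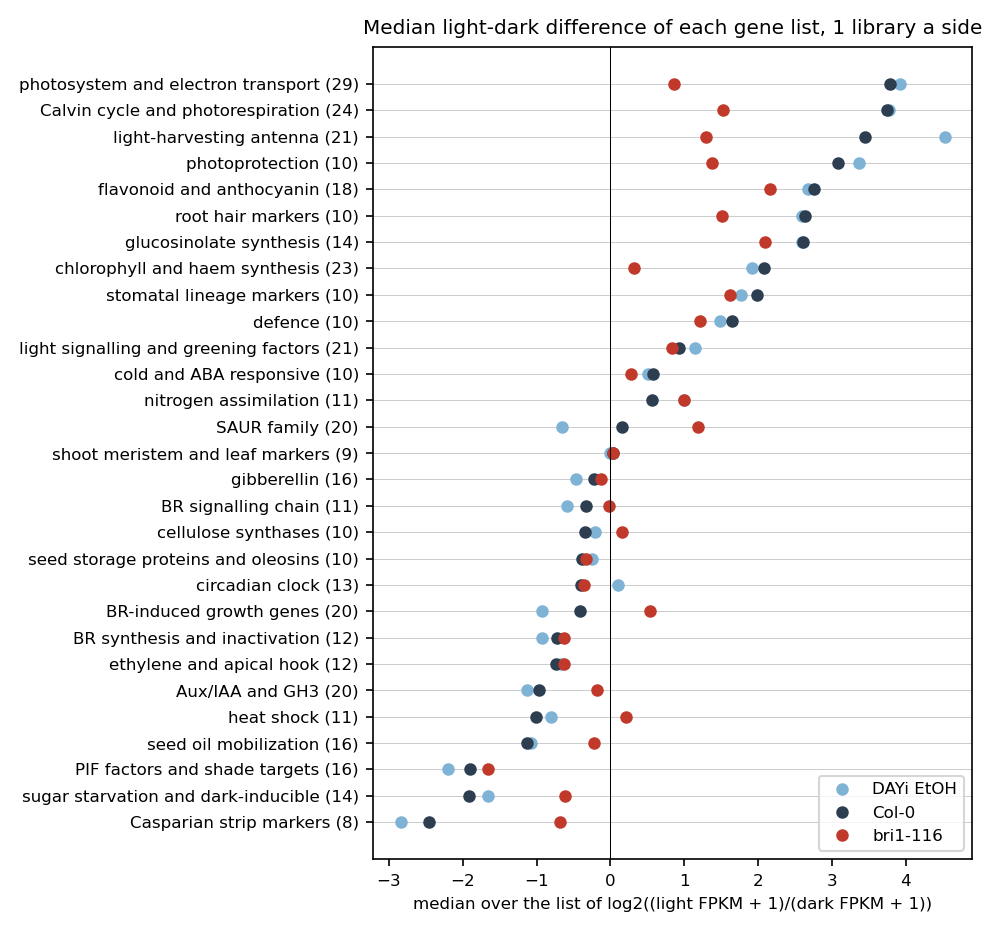
Median log2((light FPKM + 1)/(dark FPKM + 1)) of each gene list in bri1-116, Col-0 and DAYi with EtOH, 1 library a side, with the number of genes measured in brackets. In the 5 photosynthesis and chlorophyll lists bri1-116 lies at 0.32 to 1.53 and Col-0 at 2.08 to 3.79, while in the stomatal, glucosinolate and PIF lists the 3 lines lie close together.

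Chlorophyll synthesis divided by enzyme. Of 23 genes measured, 18 were over 2-fold higher in the light and 2 lower in Col-0, and 2 were higher and 2 lower in bri1-116, with medians of 2.08 and 0.32. The pair that was lower in both lines was PORA and PORB, the genes of protochlorophyllide reductases that hold the precursor in the etioplast. PORA (AT5G54190, chromosome 5 from 21990912 to 21992812) had the largest light-dark difference on FPKM + 1 among genes lower in the light in bri1-116, with 1.12 FPKM in the light and 1586 FPKM in the dark. Col-0 had 1.96 and 402 FPKM, and DAYi with EtOH 0.69 and 488 FPKM, so dark bri1-116 had the highest level of the 3. PORB was at 82.0 FPKM in light and 1649 FPKM in dark bri1-116, against 130 and 528 FPKM in Col-0. PORC, the reductase used in green tissue, was at 73.0 FPKM in the light and 59.4 FPKM in the dark in bri1-116 and at 289 and 11.8 FPKM in Col-0. HEMA1, which makes the first committed step, was at 147 and 170 FPKM in bri1-116 and at 338 and 69.6 FPKM in Col-0. Among 10 genes of photoprotection, 7 were over 2-fold higher in the light in bri1-116 and 10 in Col-0. ELIP2, an early light-induced protein, kept a difference of 2.77 (log2), from 31.2 FPKM in the dark to 219 FPKM in the light, against 5.21 in Col-0. NPQ1, violaxanthin de-epoxidase, was at 13.8 FPKM in the light and 26.9 FPKM in the dark in bri1-116, and at 29.7 and 12.6 FPKM in Col-0.

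Upstream sequence is shown for the genes with the lowest double ratio among the antenna genes, the largest drop in the light on FPKM + 1 and the highest double ratio among all lists. The stretches are the 250 bases before the gene start in the RefSeq annotation of TAIR10.1, 5′ to 3′ on the gene's strand, at chr3:10255656-10255905 (plus strand), chr5:21992815-21993064 (minus strand) and chr3:5263751-5264000 (plus strand). Capitals mark the G-box CACGTG, which bZIP factors such as HY5 and bHLH factors such as the PIFs bind, the I-box GATAAG, and the CGTGCG and CGTGTG letters of the BR response element that BZR1 binds. Both strands were searched, and CGTGTG can overlap CACGTG. In PORA the I-box lies on the other strand and is read as CTTATC.
LHCB2.3: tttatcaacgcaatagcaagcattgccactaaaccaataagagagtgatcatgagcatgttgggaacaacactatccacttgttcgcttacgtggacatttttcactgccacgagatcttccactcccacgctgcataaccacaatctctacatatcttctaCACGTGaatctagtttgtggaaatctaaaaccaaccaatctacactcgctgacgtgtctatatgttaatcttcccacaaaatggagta
PORA: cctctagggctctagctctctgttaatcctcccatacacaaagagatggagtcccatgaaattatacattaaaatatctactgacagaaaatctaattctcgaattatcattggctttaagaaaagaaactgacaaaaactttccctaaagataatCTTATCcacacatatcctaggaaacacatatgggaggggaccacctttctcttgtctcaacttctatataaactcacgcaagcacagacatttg
IAA19: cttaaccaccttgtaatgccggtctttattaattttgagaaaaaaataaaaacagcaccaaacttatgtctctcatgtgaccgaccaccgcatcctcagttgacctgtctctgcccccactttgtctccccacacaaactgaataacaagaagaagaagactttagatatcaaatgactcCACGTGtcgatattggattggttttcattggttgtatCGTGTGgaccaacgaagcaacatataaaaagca
LHCB2.3 and IAA19 each held 1 G-box, PORA held 1 I-box and IAA19 also held 1 CGTGTG. The G-box was in 6.56% of 26298 upstream stretches of this length, the I-box in 12.2%, CGTGCG in 1.59% and CGTGTG in 5.38%. Of the 1805 stretches of genes higher in the light in all 3 lines, 9.14% held a G-box. Of the 2020 of genes higher in Col-0 and DAYi with EtOH but within 2-fold in bri1-116, 6.49% did. Among genes lower in the light the same shares were 7.38% of 1625 and 6.82% of 1570. CGTGTG was in 5.26% and 5.54% of the stretches of genes higher in the light and in 6.22% and 6.31% of those lower, near the share of all stretches in each. It was in 5 of 20 stretches of the BR-induced growth list and in 0 of 20 of the SAUR list. In the antenna list it was in 0 of 21, and in the photosystem and electron transport list in 3 of 29. The G-box was in 2, 0, 5 and 5 of the stretches of these lists in the same order, and the I-box in 4, 6, 4 and 8. Of 14 glucosinolate stretches, 2 held a G-box, 2 an I-box and 1 CGTGTG. A match is a description of letters in this window and not a bound site.

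Factors of light signalling kept their differences to a larger extent than the photosynthesis genes did. In that list 10 of 21 were over 2-fold higher and 3 lower in bri1-116, against 11 and 3 in Col-0, and 3 of 21 had a double ratio above 1 and 2 below -1. CGA1, a GATA factor that promotes chloroplast formation, was at 174 FPKM in light and 2.72 FPKM in dark bri1-116, and at 20.7 and 0.37 FPKM in Col-0. It was thus higher in bri1-116 than in Col-0 under both conditions, and the difference was 5.55 (log2) in bri1-116 and 3.98 in Col-0. Its paralogue GNC was at 103 and 32.5 FPKM in bri1-116 and at 31.0 and 16.3 FPKM in Col-0. The greening factors GLK1 and GLK2 had light levels of 61.0 and 123 FPKM in bri1-116, close to the 60.8 and 130 FPKM in Col-0, and dark levels of 15.6 and 41.9 FPKM against 10.13 and 26.2 FPKM. HY5 itself was at 71.1 FPKM in light and 79.6 FPKM in dark bri1-116, while in Col-0 it was lower in the light, at 19.5 against 71.7 FPKM. HYH, its homologue, was at 342 and 74.0 FPKM in bri1-116 and at 86.7 and 17.7 FPKM in Col-0, about equal in log2 difference at 2.19 and 2.23. BBX31, a B-box protein gene, was at 11.7 and 0.28 FPKM in bri1-116 and at 13.1 and 0.17 FPKM in Col-0. PHYA, the photoreceptor that accumulates in the dark, was at 37.9 FPKM in light and 194 FPKM in dark bri1-116, against 38.9 and 317 FPKM in Col-0.

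The PIF factors and the genes of shade avoidance were mostly lower in the light in all 3 lines, 10 of 16 in bri1-116, 10 in Col-0 and 11 in DAYi with EtOH, with medians of -1.66, -1.90 and -2.20. HFR1, a bHLH protein that limits PIF activity, was at 6.96 FPKM in light and 83.2 FPKM in dark bri1-116, close to the 7.01 and 96.0 FPKM in Col-0. PIL1 was at 0.52 and 15.02 FPKM in bri1-116 and at 0.38 and 23.62 FPKM in Col-0, and IAA29, an auxin response repressor, was at 0.55 and 13.4 FPKM against 2.90 and 22.5 FPKM. PIF7 ran the other way in every line, at 16.1 and 0.42 FPKM in bri1-116 and at 20.7 and 0.46 FPKM in Col-0, as did PIF5 at 78.5 and 22.0 FPKM against 71.1 and 19.5 FPKM. PIF4, a bHLH factor that promotes growth, ran in opposite directions in bri1-116 and the other lines, as did PRE1, given below. PIF4 was at 4.87 FPKM in light and 17.44 FPKM in dark bri1-116, whereas Col-0 had 33.5 and 15.7 FPKM and DAYi with EtOH 39.6 and 9.91 FPKM. Its dark level in bri1-116 was thus near that of Col-0 and its light level was below all others.

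Of 20 growth genes that BR induces, 6 were over 2-fold higher and 2 lower in the light in bri1-116, against 2 and 7 in Col-0 and 2 and 10 in DAYi with EtOH. The list was drawn up from what BR does in wild type, so low levels in bri1-116 are what the allele is known for. IAA19, an auxin response repressor gene (AT3G15540), was at 3.66 FPKM in light and 2.27 FPKM in dark bri1-116. It was at 5.15 and 128 FPKM in Col-0 and at 4.89 and 164 FPKM in DAYi with EtOH. Dark bri1-116 thus lay with the light libraries and apart from both other dark libraries. PRE1, a bHLH growth factor, was at 1.81 and 0.50 FPKM in bri1-116 against 5.18 and 21.2 FPKM in Col-0. XTH4 and XTH19, xyloglucan-modifying enzymes of the cell wall, were at 204 and 31.6 FPKM in light bri1-116, within 2-fold of the 289 and 48.9 FPKM in light Col-0. In the dark XTH4 was at 121 FPKM in bri1-116 and 753 FPKM in Col-0, and XTH19 at 14.3 and 131 FPKM. EXPA8, low in both bri1-116 libraries as given above, had no light-dark difference past 2-fold in any line. EXPA1 kept its difference, at 174 and 15.3 FPKM in bri1-116 and at 391.6 and 28.1 FPKM in Col-0. TCH4, a touch-induced xyloglucan enzyme gene, was at 163 FPKM in light and 16.9 FPKM in dark bri1-116 and at 28.6 and 41.3 FPKM in Col-0.

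The SAUR genes, small auxin-induced genes that promote cell expansion, followed the same pattern. Of 20 members, 12 were over 2-fold higher in the light in bri1-116 and 3 lower, while 3 were higher and 5 lower in Col-0. The median of bri1-116 over Col-0 was the lowest of all lists under both conditions, with -3.16 (log2) for dark and -1.62 for light libraries. In the light the antenna list was close, at -1.61. Over all 78 entries described as SAUR-like, grouped after their values were seen, the medians were smaller, at -0.46 for dark and -0.43 for light libraries. Of these, 28 were over 2-fold higher and 8 lower in the light in bri1-116, against 15 and 15 in Col-0. SAUR62 was at 14.2 FPKM in light and 0.52 FPKM in dark bri1-116 and at 26.8 and 14.1 FPKM in Col-0. SAUR50 was at 42.6 and 6.94 FPKM in bri1-116 and at 55.1 and 47.0 FPKM in Col-0. SAUR19 and SAUR22, of a cluster of near-identical copies on chromosome 5, were lower in the light in every line, at 0.77 and 0.16 FPKM in light and 3.14 and 1.81 FPKM in dark bri1-116, against 38.3 and 37.0 FPKM in dark Col-0. Reads of that cluster may have been split unevenly among its copies. Among Aux/IAA and GH3 genes, which encode auxin response repressors and auxin-conjugating enzymes, 3 of 20 were lower in the light in bri1-116 and 10 in Col-0. Of all genes with a ratio, 12.7% were lower in bri1-116 and 19.1% in Col-0. IAA6 was listed at 0 FPKM in dark bri1-116 and at 0.31 FPKM in the light, where Col-0 had 19.9 FPKM in the dark and 0.34 FPKM in the light. IAA3 was at 29.7 and 18.9 FPKM in bri1-116 and at 27.8 and 98.7 FPKM in Col-0. By the list medians, bri1-116 and Col-0 were nearer to each other in the light than in the dark in the growth, SAUR and Aux/IAA lists.

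**Figure D3:**
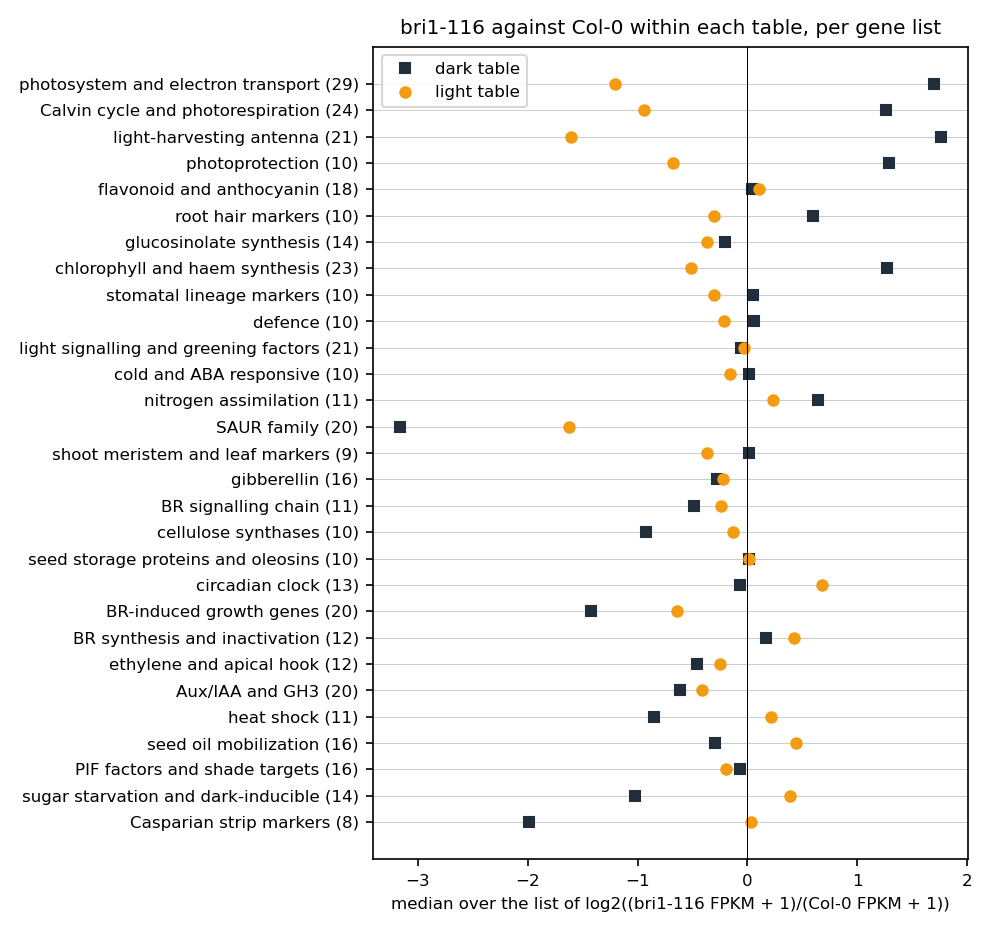
Median log2((bri1-116 FPKM + 1)/(Col-0 FPKM + 1)) of each gene list within the dark table (squares) and within the light table (circles), with the number of genes measured in brackets. For the photosynthesis lists dark bri1-116 lies above Col-0 and light bri1-116 below it, and for the SAUR, BR-induced growth, Casparian strip and starvation lists the larger part of the difference lies in the dark.

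In the BR pathway itself, the synthesis and inactivation list had median light-dark differences of -0.62 (log2) in bri1-116 and -0.73 in Col-0. The signalling chain had smaller ones, -0.02 and -0.33. Of 12 genes of BR synthesis and inactivation, 4 were over 2-fold lower in the light in bri1-116 and 5 in Col-0, and none was higher in either. DWF4, the rate-limiting hydroxylase of BR synthesis, was at 26.5 FPKM in light and 56.2 FPKM in dark bri1-116, above the 9.15 and 33.0 FPKM in Col-0 under both conditions. CPD, a cytochrome P450 of BR synthesis, was at 134 and 281 FPKM in bri1-116 and at 106 and 219 FPKM in Col-0, over 2-fold lower in the light in both. BR6OX1 was at 1.96 and 8.89 FPKM in bri1-116 and at 0.67 and 6.37 FPKM in Col-0. ROT3 was at 17.2 and 27.4 FPKM in bri1-116 and at 8.23 and 38.0 FPKM in Col-0. In the signalling chain of 11 genes, only BSU1, a phosphatase gene at 0.082 FPKM in light and 0.030 FPKM in dark bri1-116, was past 2-fold in bri1-116, while 4 were lower and 1 higher in Col-0.

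In the gibberellin list 5 of 16 genes were over 2-fold higher and 3 lower in the light in bri1-116, against 2 and 3 in Col-0. In the ethylene and apical hook list 0 of 12 were higher and 5 lower in both lines. Over all genes with a ratio, 15.3% were higher and 12.7% lower in bri1-116, against 22.9% and 19.1% in Col-0. GASA4, a gibberellin-regulated peptide gene, was at 463 FPKM in light and 4371 FPKM in dark bri1-116 and at 247 and 1139 FPKM in Col-0, so the dark level was the highest in bri1-116. GASA6 was at 174 and 62.8 FPKM in bri1-116 and at 443 and 164 FPKM in Col-0. GA2OX2, which inactivates gibberellin, was at 3.22 and 1.44 FPKM in bri1-116, whereas Col-0 had 1.13 and 3.66 FPKM. HLS1, needed for the apical hook, was at 1.71 and 8.27 FPKM in bri1-116 and at 2.55 and 11.8 FPKM in Col-0, a difference kept at -1.77 against -1.84 (log2). ACS5, an ethylene synthesis gene, was at 0.24 and 0.20 FPKM in bri1-116 and at 1.13 and 6.35 FPKM in Col-0. CESA5, a cellulose synthase of the primary wall, was at 41.9 and 10.4 FPKM in bri1-116 and at 43.5 and 25.9 FPKM in Col-0. It and CESA2 were the only members of 10 in that list over 2-fold higher in the light in bri1-116, and none was in Col-0.

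Flavonoid synthesis was higher in the light in all 3 lines in its early steps, and the late anthocyanin steps were nearly silent in bri1-116. Of 18 genes, 14 were over 2-fold higher in the light in bri1-116, 13 in Col-0 and 14 in DAYi with EtOH, and none was lower. No ratio could be taken for 2, 3 and 2 of them in these lines. CHS, chalcone synthase, was at 265 FPKM in light and 18.6 FPKM in dark bri1-116 and at 384 and 1.60 FPKM in Col-0. F3H was at 70.0 and 3.14 FPKM in bri1-116 and at 62.9 and 1.204 FPKM in Col-0, and FLS1, flavonol synthase, was at 72.8 and 1.89 FPKM against 51.0 and 0.40 FPKM. MYB12, a factor of flavonol synthesis, was at 13.7 and 0.07 FPKM in bri1-116 and at 3.69 and 0.13 FPKM in Col-0. LDOX, anthocyanidin synthase, was at 0.20 FPKM in light bri1-116 against 27.8 FPKM in light Col-0 and 17.39 FPKM in light DAYi with EtOH, and at 0.00801, 0.0151 and 0.0166 FPKM in the dark in bri1-116, Col-0 and DAYi with EtOH. DFR, the enzyme before it, was at 0.14 FPKM in light bri1-116 and at 20.2 FPKM in light Col-0, and was listed at 0 in each dark library. The transport gene GSTF12 was at 2.94 FPKM in light bri1-116 and at 21.3 FPKM in light Col-0.

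Genes of glucosinolate synthesis and of defence were mostly higher in the light in bri1-116 too. Glucosinolates are sulphur-rich defence compounds of the mustard family. Of 14 genes of their synthesis, 9 were over 2-fold higher in the light and 1 lower in bri1-116, against 6 and 1 in Col-0, where 3 had no ratio. MAM1, which extends the methionine side chain, was at 109 FPKM in light and 0.71 FPKM in dark bri1-116 and at 163 and 0.20 FPKM in Col-0. CYP83A1 was at 119 and 0.53 FPKM in bri1-116 and at 192 and 0.05 FPKM in Col-0. MYB28, the factor of the aliphatic branch, was at 34.0 and 4.63 FPKM in bri1-116 and at 66.6 and 1.53 FPKM in Col-0, while MYB51, of the indolic branch, was lower in the light in both, at 8.00 and 20.4 FPKM against 4.43 and 27.4 FPKM. In the defence list 8 of 10 were higher and 1 lower in bri1-116, where 1 had no ratio. In Col-0 these counts were 6 and 1, and the other 3 had no ratio. LOX2, the first enzyme of jasmonate synthesis, was at 101 FPKM in light and 0.29 FPKM in dark bri1-116, above the 56.4 and 0.10 FPKM in Col-0.

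In the seed oil and starvation lists, as over all genes, fewer genes were past 2-fold between light and dark in bri1-116 than in the other lines. Of 16 genes of seed oil mobilization, 3 were over 2-fold lower in the light in bri1-116, against 9 in Col-0 and 9 in DAYi with EtOH. Of all genes with a ratio, 12.7% were lower in bri1-116, 19.1% in Col-0 and 19.8% in DAYi with EtOH. ICL, isocitrate lyase of the glyoxylate cycle, was at 3.37 FPKM in light and 34.5 FPKM in dark bri1-116 and at 1.02 and 111 FPKM in Col-0. PCK1, of gluconeogenesis, was at 130 and 403 FPKM in bri1-116 and at 94.2 and 439 FPKM in Col-0. Of 14 genes of sugar starvation, 6 were lower in the light in bri1-116 and 13 in Col-0, with medians of -0.62 and -1.92. ASN1, asparagine synthetase, was at 4.33 and 114 FPKM in bri1-116 and at 4.34 and 282 FPKM in Col-0. BCAT2, of branched-chain amino acid breakdown, was at 2.49 and 83.6 FPKM in bri1-116 and at 0.54 and 262 FPKM in Col-0. GDH2, glutamate dehydrogenase, was at 141 and 162 FPKM in bri1-116 and at 97.6 and 331 FPKM in Col-0. DIN11 was the only member higher in the light in bri1-116, at 16.1 and 5.31 FPKM in bri1-116 and at 1.03 and 3.44 FPKM in Col-0. The seed storage protein and oleosin list was below 1 FPKM in all libraries but for OLEO2, which was at 6.06 FPKM in dark and 0.07 FPKM in light bri1-116 and at 1.73 FPKM in dark Col-0.

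In nitrogen assimilation 6 of 11 genes were higher in the light in bri1-116 and 6 in Col-0. ASN2, the asparagine synthetase of the light, was at 297 and 38.3 FPKM in bri1-116 and at 159 and 9.28 FPKM in Col-0. NRT1.1, a nitrate transporter and sensor, was at 78.7 and 29.6 FPKM in bri1-116, whereas in Col-0 it was at 64.3 FPKM in the light and 117 FPKM in the dark. Clock genes depend on the hour of harvest, which the sources used here do not give. The morning genes LHY and CCA1 were at 389 and 232 FPKM in light bri1-116, against 68.6 and 93.7 FPKM in light Col-0, and at 72.0 and 60.7 FPKM in dark bri1-116 against 75.6 and 55.4 FPKM in dark Col-0. PRR9 was higher and TOC1 lower in the light in both lines, at 23.4 and 10.6 FPKM in light bri1-116. Their dark levels in bri1-116 were 1.42 and 41.6 FPKM. A difference in harvest hour between light libraries was not tested.

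Of 11 heat shock genes, 5 were over 2-fold higher in the light and none lower in bri1-116, whereas none was higher and 9 were lower in Col-0. Levels were low. HSFA2, a heat shock factor, was at 4.77 FPKM in light and 0.92 FPKM in dark bri1-116 and at 0.46 and 2.46 FPKM in Col-0. HSP101 was at 12.1 and 5.74 FPKM in bri1-116 and at 3.42 and 8.29 FPKM in Col-0, and HSP90.1 at 17.7 and 10.7 FPKM against 5.32 and 21.2 FPKM. These 3 genes were thus above Col-0 in the light and below it in the dark. With the dark libraries exchanged the direction of the list turned, to 0 higher and 4 lower in bri1-116. Among cold and ABA responsive genes, COR47, a dehydrin, was at 195 and 88.6 FPKM in bri1-116 and at 205 and 451 FPKM in Col-0. KIN2 was at 163 and 168 FPKM in bri1-116 and at 121 and 22.4 FPKM in Col-0.

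Whole seedlings differ in their share of each cell type, and fewer cells of a type cannot be told apart from less RNA per cell in such samples. All 10 root hair markers were over 2-fold higher in the light in bri1-116 and in both other lines. Their summed level was 92.0 FPKM in light and 20.9 FPKM in dark bri1-116, and 127 and 5.01 FPKM in Col-0. PRP3, a root hair cell wall protein, was at 20.3 and 4.36 FPKM in bri1-116 and at 31.7 and 0.33 FPKM in Col-0. Of 8 Casparian strip markers, which mark the root endodermis, 3 were lower in the light in bri1-116 and 7 in Col-0, with summed levels of 107.8 and 191 FPKM in bri1-116 and 140.1 and 669 FPKM in Col-0. CASP5 was at 3.94 and 18.6 FPKM in bri1-116 and at 3.41 and 123 FPKM in Col-0, and CASP1 at 29.7 and 36.0 FPKM against 32.2 and 137 FPKM. Light levels of these markers were close between lines, and dark bri1-116 stood below dark Col-0. Stomatal lineage markers were higher in the light in 6 of 10 in bri1-116 and in 9 in Col-0, with summed levels of 122.0 and 52.9 FPKM against 175 and 50.1 FPKM, and SPCH, which starts the lineage, was at 9.53 and 1.04 FPKM in bri1-116 and at 11.7 and 1.18 FPKM in Col-0. Of 9 shoot meristem and leaf markers, 3 were higher and 3 lower in the light in bri1-116, as in Col-0, and WUS, which marks the stem cell niche, was at 0.030 FPKM in light and 0.0089 FPKM in dark bri1-116. Of 10 cell division markers 3 were measured as entries of their own. All 3 were over 2-fold higher in the light in bri1-116, against 2 in Col-0 and 2 in DAYi with EtOH. The part of these cell types in the differences above was not tested.

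Among single genes at 10 FPKM or more, the largest drops in the light on FPKM + 1 were shared with Col-0. By the ratio without it, AT5G44440 and AT4G10240 fell further than PORA, from light levels of 0.04 FPKM that rest on few fragments. After PORA came AT5G44440, a berberine bridge enzyme-like gene, at 0.04 FPKM in light and 655 FPKM in dark bri1-116 and at 0.21 and 400 FPKM in Col-0. AT4G10240, a B-box zinc finger gene, was at 0.04 and 130 FPKM in bri1-116 and at 0.17 and 65.7 FPKM in Col-0. PXMT1, a methyltransferase, FLP1, related to a flowering-promoting factor, and IAA20 were at 379, 67.6 and 94.0 FPKM in dark bri1-116 and at 3.91, 0.12 and 0.64 FPKM in the light. All 10 genes of this rank were over 2-fold lower in the light in Col-0 and 9 in DAYi with EtOH, where AT4G10240 was listed at 0 in the light. Of the 10 genes with the largest increases on the same scale, CPuORF62 was listed at 0 in dark bri1-116 and at 1824 FPKM in the light, and it was listed at 0 in both DAYi libraries. It overlaps another entry, and a listed 0 of such a gene can be a failed estimate. The other 9 were higher in the light in all 3 lines, although AT1G65490 was listed at 0 in dark Col-0 and CYP83A1 in dark DAYi with EtOH. AT2G30766 was at 788 FPKM in light and 3.73 FPKM in dark bri1-116 and at 450 and 1.59 FPKM in Col-0. CT-BMY, the plastid beta-amylase, was at 178 and 0.28 FPKM in bri1-116 and at 75.5 and 0.60 FPKM in Col-0. The lipid transfer protein gene pEARLI 1 was at 239 and 0.67 FPKM in bri1-116 and at 443 and 6.77 FPKM in Col-0.

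**Figure D4:**
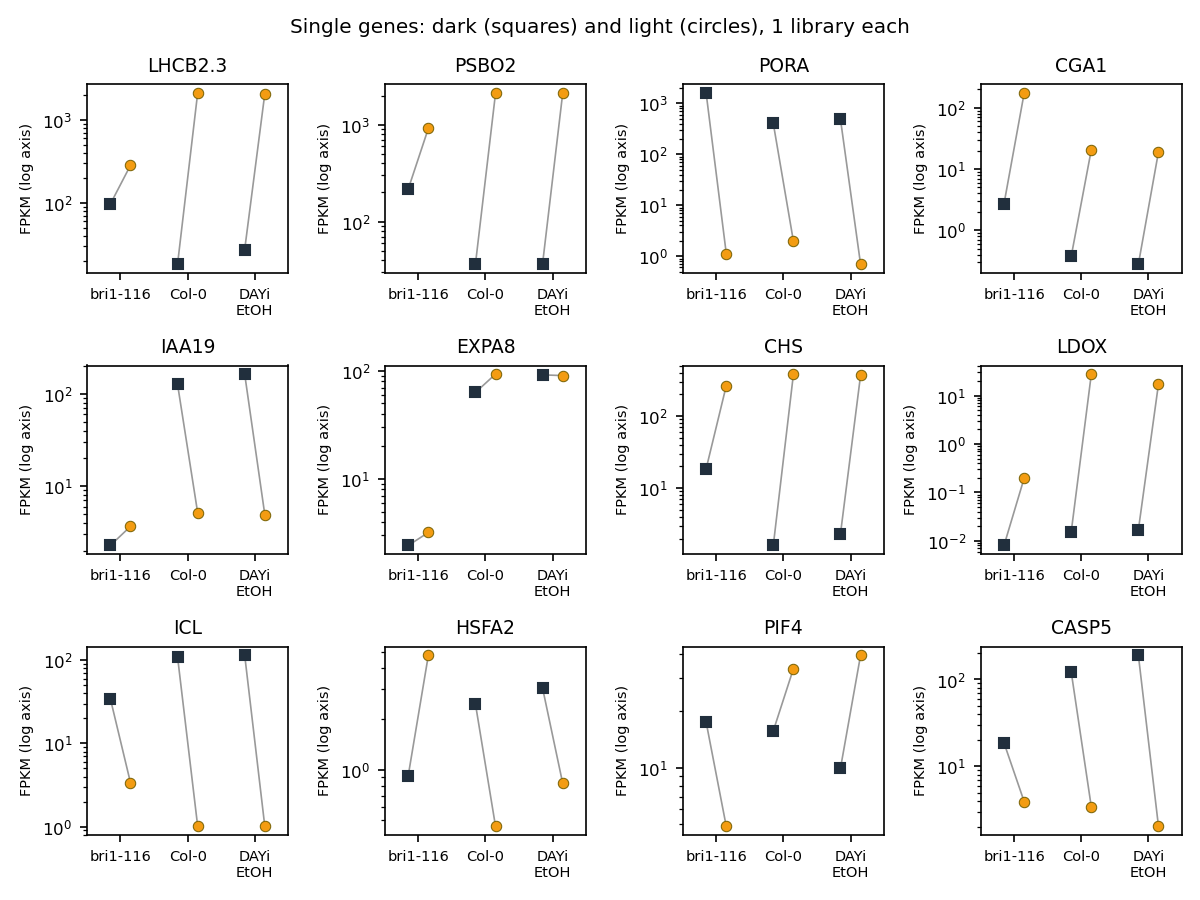
FPKM on a log axis of 12 genes in dark (squares) and light (circles) libraries of bri1-116, Col-0 and DAYi with EtOH, 1 library each, joined within a line. LHCB2.3 and PSBO2 keep a reduced difference in bri1-116, IAA19 has none there past 2-fold, PORA and CGA1 keep theirs, and HSFA2 and PIF4 run in the opposite direction to both other lines.

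The extremes of the double ratio held small secreted protein genes beside LHCB2.3 and the aldolase gene. AT3G05727, a defensin-like gene, was at 414 FPKM in light and 211 FPKM in dark bri1-116 and at 1114 and 12.6 FPKM in Col-0. PDF1.5, a plant defensin, was at 21.0 and 41.8 FPKM in bri1-116 and at 58.4 and 1.69 FPKM in Col-0. AT4G22517, a gene of the lipid transfer protein family, was at 297 and 131 FPKM in bri1-116 and at 550 and 4.13 FPKM in Col-0. It shares its span on chromosome 4 from 11854809 to 11857313 with AT4G22510 and AT4G22513, which are in the same rank, so these entries are not separate measurements. At the other end 8 of the 10 entries were listed at 0 in at least 1 of the 4 libraries and are not described, which left AT4G11190 and AT1G02470. AT4G11190, a dirigent protein gene, was at 24.8 FPKM in light and 1.54 FPKM in dark bri1-116 and at 27.7 and 193 FPKM in Col-0. AT1G02470, of the SRPBCC ligand-binding family, was at 25.5 and 1.38 FPKM in bri1-116 and at 0.93 and 4.87 FPKM in Col-0, so the first differed between lines in the dark and the second mostly in the light. DAY itself was at 41.8 FPKM in light and 32.8 FPKM in dark bri1-116 and at 73.5 and 13.8 FPKM in Col-0, a double ratio of -1.99.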

How the data were processed

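Whole Arabidopsis seedlings were sequenced as 1 RNA-seq library per group. Per the labels, the authors' processing notes name TopHat2 2.0.13, Cuffdiff 2.2.0, CASAVA 1.8.2 and TAIR10. The authors deposited FPKM for 2 libraries per table, and FPKM divide by transcript length and depth, so counts were not used. The light and dark tables were joined on their entry identifier. The authors' own fold changes and p-values, and 2 DEX columns, were not used. Of 26987 entries, 140 join several loci and 52 have no locus tag.

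Ratios were computed in Python 3.11.15 (numpy 2.4.6, pandas 2.3.3, matplotlib 3.10.9). A call needed FPKM above 0 in both libraries and a ratio beyond 2-fold. Medians, ranks and double ratios used FPKM + 1. Scripts were tested on simulated data. The 30 lists (428 of 442 loci measured), like the comparison itself, were chosen with earlier results of these data known.

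Named genes were BRI1, DAY and AT2G01021, up to 4 members per list with the largest light-dark difference, up to 2 with the largest double ratio, and, at 10 FPKM or more, the 10 largest of each either way. LHCB1.3, PSAG, HEMA1, NPQ1, GNC, HYH, GLK1, GLK2, PIF5, EXPA8, XTH4, XTH19, BR6OX2, SAUR19, SAUR22, IAA3, GSTF12, GDH2, MYB51, CASP1, BSU1 and WUS were added after their values were seen. Depth was read roughly from steps between low values, assuming fragments of 250 bases. Alternatives were other thresholds, pseudocounts, filters and scalings, and the dark libraries exchanged.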

Additional observations from a re-analysis of the deposited data

Results flagged for a closer look

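The following named genes were past 2-fold between light and dark in bri1-116, and past 2-fold the other way in Col-0 and DAYi with EtOH. This difference between lines was not tested, since each line has 1 library a side. The values are the log2 light-dark difference of bri1-116 less that of Col-0 on FPKM + 1. AT4G11190, a dirigent protein gene, had 6.10 and AT1G02470, of the SRPBCC family, had 5.08. The heat shock genes HSFA2 and HSP101 had 2.83 and 2.04. The growth genes PRE1 and XTH19 had 2.75 and 2.49, COR47 had 2.26 and GA2OX2 had 1.92. PIF4 was the only one of these genes lower in the light in bri1-116 and higher in Col-0, with -2.70. BSU1 had 0.41 at levels below 1 FPKM in all 4 libraries. With both dark libraries exchanged, AT4G11190, COR47, GA2OX2, PRE1, XTH19 and BSU1 were lower in the light in bri1-116 too, with log2 differences of -2.91, -1.20, -0.14, -2.98, -2.02 and -0.32, and HSFA2 and HSP101 were within 2-fold.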

How the results depend on the processing

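At 1.5-fold, 5539 genes were higher and 5071 lower in the light in bri1-116, and 6994 differences in Col-0 were kept (52%). At 4-fold these were 1321, 913 and 1288 (36.3%). With 1 FPKM added to both values before the ratio, 2077 were higher and 1741 lower. With at least 1 FPKM in every library used, 1917 were higher and 1776 lower, and 2288 differences in Col-0 were kept (36.3%). With a pseudocount of 5 FPKM, 2527 genes instead of 4254 had a double ratio beyond 2-fold, 907 higher and 1620 lower. Scaling without AT2G01021 gave 2918 higher and 3467 lower, 45.7% higher of those called against 54.6%. Under every threshold, filter and scaling of the light-dark ratio tried and the exchange, the share kept in bri1-116 stayed below that in DAYi with EtOH.

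With both dark libraries exchanged, the log2 light-dark difference in bri1-116 changed sign in 22 of 109 named genes. In 5 of them it was past 2-fold by the titles, and it went to -2.02 in XTH19, -0.14 in AT4G34760 (SAUR50), -0.57 in NRT1.1, -1.20 in COR47 and -2.91 in AT4G11190. In the other 17 it was within 2-fold by the titles, and among these it went to -4.79 in IAA19, -2.98 in PRE1, -1.88 in XTH4, -1.70 in IAA3, -0.24 in HSP90.1 and -0.14 in GA2OX2. No other setting changed the sign of a named gene. Over all settings 593 values of named genes kept their direction and side of 2-fold, 19 fell within it and 20 passed it in the same direction. Of the list counts, 481 stayed within 1.5 times and 119 did not. No paired analysis was possible because each group has 1 library. The limits are the missing replicates, the age difference between light and dark, separately made tables and the conflict in the dark labels, whose parts in the results were not tested.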

Other observations

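Genes of the protein synthesis machinery, grouped by the descriptions in the files after their values were seen, also differed less between light and dark in bri1-116. Of 222 entries of cytosolic (60S or 40S) ribosomal proteins, 15 were over 2-fold higher and 2 lower in the light in bri1-116, against 199 and 2 in Col-0 and 154 and 3 in DAYi with EtOH. Their median log2 difference was 0.50 in bri1-116, 1.55 in Col-0 and 1.17 in DAYi with EtOH. In the dark the median of bri1-116 over Col-0 was 0.93, and in the light it was -0.10. Of 35 entries of 50S or 30S ribosomal proteins, 1 was higher in bri1-116, 32 in Col-0 and 31 in DAYi with EtOH. Core histones, which package new DNA, had 12 of 41 entries higher in bri1-116 and 28 in Col-0, and here bri1-116 over Col-0 had a median of -0.04 in the dark and -0.84 in the light.

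Families of the cell wall were counted in the same way. Of 57 arabinogalactan protein entries, 18 were higher and 3 lower in the light in bri1-116, against 8 and 12 in Col-0 and 8 and 22 in DAYi with EtOH. Of 38 xyloglucan endotransglucosylase entries, 14 were higher and 5 lower in bri1-116, against 10 and 14 in Col-0 and 12 and 13 in DAYi with EtOH. Of 33 expansin entries, 9 were higher and 3 lower in bri1-116, against 10 and 6 in Col-0 and 7 and 11 in DAYi with EtOH. Of all genes with a ratio, 15.3% were higher and 12.7% lower in bri1-116. These shares were 22.9% and 19.1% in Col-0, and 21.2% and 19.8% in DAYi with EtOH. Over all entries, 99 genes were higher in the light in bri1-116 and lower in both other pairs, and 35 were the reverse. None of these differences between lines was tested.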
